A study of Drosophila melanogaster with 6 samples.

Results

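Glycolysis splits glucose into pyruvate in the cytosol, first spending and then returning ATP, and lactate dehydrogenase turns pyruvate into lactate while restoring the NAD+ that the pathway consumes. In the fly nervous system glial cells carry out much of this breakdown and pass products such as lactate on to neurons, and growing larvae run a strongly glycolytic metabolism. The 10 genes described here encode enzymes of this route: *Hex-A*, *Pgi*, *Pfk*, *Tpi*, *Gapdh1*, *Gapdh2*, *Pgk*, *Eno*, *PyK* and *Ldh*. They were picked by name as enzymes of the pathway, and all 10 were found among the 13416 genes of the comparison table, where *Ldh* is listed under its older name *ImpL3*.

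RNA was sequenced in bulk from the dissected central nervous system (CNS) of third-instar *Drosophila melanogaster* larvae, with 40 to 45 larvae pooled for each sample. Alk-YS larvae carried an edited, homozygous *Alk* allele in which a tyrosine in the kinase domain of this receptor tyrosine kinase is exchanged for serine, together with silent changes from the repair template. They were compared with w1118 larvae, the control strain, and each group held 3 biological replicates. The labels call the control w1118, while the study's methods name as wild type a w1118 stock that carries vas-Cas9. The edit is present in every cell of the animal, so the comparison is not limited to a cell type, and neither the sex nor the exact age of the larvae is stated in the labels.

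Between 18770029 and 22333967 reads per library were assigned to genes. Transcripts of neurons, neuroblasts and glia were abundant in all 6 libraries. The 9 neuron markers summed to between 39650 and 43666 scaled counts in Alk-YS and between 39718 and 54013 in w1118, with a median log2 fold change of -0.25. The 7 neuroblast markers summed to between 42167 and 43947 in Alk-YS and between 38698 and 46204 in w1118, with a median of 0.44. The 8 glia markers summed to between 16838 and 21341 in Alk-YS and between 17778 and 20592 in w1118, with a median of 0.00. The sums of all 3 lists overlapped between the genotypes and none of their genes passed in limma. The 6 late larval stage markers summed to between 37752 and 39625 in Alk-YS and between 36535 and 39766 in w1118. None of the 6 passed in limma, and their median log2 fold change was 0.06. One set of transcripts did not follow the genotype: 3 gut lining genes summed to 6913, 2.14 and 5855 scaled counts in Alk-YS replicates 1 to 3, against 3.30, 4 and 24414 in w1118 replicates 1 to 3. For *Alk* itself the log2 fold change was 0.05 ± 0.13 (standard error; limma adjusted p = 0.921).

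Expression was compared between genes as FPKM (fragments scaled to transcript length and sequencing depth), which allows for gene length. By this measure the members acting from the triose phosphates to pyruvate were more abundant than the members of the entry steps. The aldolase gene *Ald*, an entry step outside the members, had between 67.35 and 111.6 FPKM. This range overlapped that of *PyK* (95.14 to 131). *Gapdh2* led with a mean of 349.6 FPKM over the 6 libraries, followed by *Gapdh1* (220.3), *Eno* (162.7), *Tpi* (126), *Pgk* (119) and *PyK* (110.4). *Pgi* followed with a mean level of 58.4 FPKM, *Pfk* with 26.6 FPKM, *Hex-A* with 22.8 FPKM and *Ldh* with 16.8 FPKM. The ranges over the 6 libraries did not overlap between *Gapdh2* and *Gapdh1*, between *PyK* and *Pgi*, or between *Pgi* and *Pfk*. All other neighbours in this order had overlapping ranges, although *Gapdh1* was above *Eno*, *Eno* above *Tpi*, *Pfk* above *Hex-A* and *Hex-A* above *Ldh* within each of the 6 libraries. *Ldh*, the least abundant, had a higher mean FPKM than 76.1% of the 17558 genes in the FPKM table. That table includes genes at 0 FPKM, and only 9668 genes reached the minimum mean for testing, so this share does not mark a high level. The members together summed to 985.67, 1273 and 1129.1 FPKM in Alk-YS replicates 1 to 3, against 1182.2, 1253 and 1452.2 FPKM in w1118 replicates 1 to 3. These sums overlapped between the groups.

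The comparison of genotypes brought 1 member past the test threshold, *Ldh*, and that call depended on which libraries were included. Its scaled read count (reads divided by a library size factor) was lower in all 3 Alk-YS libraries than in any w1118 library, while no enzyme from glucose to pyruvate passed the test. Of the 10 members, *Ldh* alone passed the limma test across all genes at an adjusted p under 0.05, and no member passed as higher. Over all 9668 genes tested, 2.97% passed, 1.26% as higher and 1.71% as lower in Alk-YS. Of the 165 genes that passed as lower, 129 had a larger fall than *Ldh*. At an unadjusted p under 0.05, 2 members were lower, against 7.71% of all genes tested. The log2 fold change was below 0 for 9 of the 10 members, with *PyK* at -0.006, against 48.4% of all genes tested. The median was -0.18 for the members and 0.01 for all genes. The members varied together over the 6 libraries, so they are not 10 separate observations. The Pearson r of each with the mean of the others lay between 0.452 (*Ldh*) and 0.976 (*Gapdh2*). The values of the 2 groups did not overlap for 2 members, *Ldh* and *Gapdh2*, both lower in Alk-YS. Among all genes tested 10.1% were lower and 9.41% higher without overlap. The groups' values for all members are shown in the plot of scaled read counts by library.

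**Figure D1:**
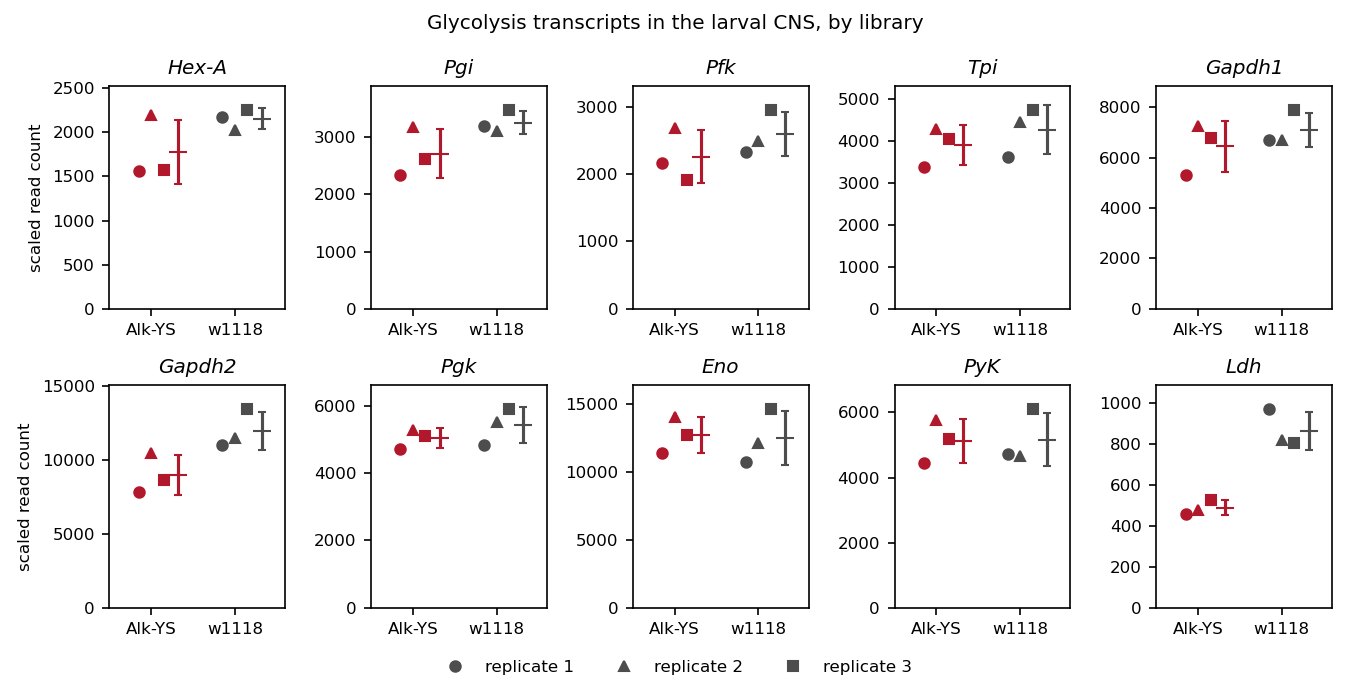
Scaled read count (reads divided by the library's size factor, y axis from 0) of each of the 10 genes in the 3 Alk-YS libraries (left, red) and the 3 w1118 libraries (right, grey); symbols mark the replicate and the bar beside them the mean and SD (n = 3). *Ldh* lay between 459.2 and 528.3 in Alk-YS and between 804.2 and 969.4 in w1118, whereas the groups overlapped for every gene except *Ldh* and *Gapdh2*.

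*Ldh* (FBgn0001258; BDGP6 3L, 6259105 to 6262694, minus strand) encodes the only lactate dehydrogenase of the list, the enzyme at the branch from pyruvate to lactate. Alk-YS replicates 1 to 3 had 459.2, 479.4 and 528.3 scaled counts of *Ldh*, against 969.4, 817.1 and 804.2 in w1118 replicates 1 to 3. The highest Alk-YS library therefore stayed well under the lowest w1118 library. The mean was 489 ± 35.6 in Alk-YS and 863.6 ± 91.9 in w1118 (SD, n = 3 each). The limma fit on log2 values put Alk-YS at 0.568 times the w1118 level. On the log2 scale this was a change of -0.82 ± 0.12 (standard error), with a 95% interval from -1.09 to -0.55 (limma adjusted p = 0.0122). An exact two-sided permutation test on the log2 values gave p = 0.1, the smallest that 3 libraries against 3 can give. *Ldh* rested on at least 449 reads in each library, a counting error of at most 4.72%, so that the spread between replicates (7.27% of the mean in Alk-YS and 10.6% in w1118) was the larger error. In bulk RNA a smaller number of *Ldh*-expressing cells and a lower *Ldh* level per cell cannot be told apart.

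The direction and size of the *Ldh* difference held under the 17 alternative settings tried, with a log2 fold change between -0.87 and -0.73. Its call was less stable. Leaving out a single library moved the adjusted p from limma over the threshold in 3 of 6 cases: to 0.0591 without Alk-YS replicate 1, to 0.0522 without w1118 replicate 1 and to 0.0508 without w1118 replicate 2. Without w1118 replicate 3, the library with the most gut lining transcripts, the log2 fold change was -0.87 and the adjusted p 0.016. Over all 17 alternatives the adjusted p lay between 3.82e-07 and 0.0591, and it was under the threshold in 14.

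Markers of tissues outside the CNS were compared beside *Ldh*, and only the muscle list had sums that did not overlap between the genotypes. The 7 muscle markers summed to between 1653 and 2320 scaled counts in Alk-YS and between 2972 and 3992 in w1118, and 2 of the 7 passed as lower in limma, against 1.71% of all genes tested. The 7 fat body markers summed to 17877, 40008 and 6369 scaled counts in Alk-YS replicates 1 to 3, against 62717, 137688 and 18059 in w1118 replicates 1 to 3. These ranges overlapped, and 1 of 7 passed as lower. In each same-numbered pair, however, the fat body sum was lower in Alk-YS, as was the muscle sum. The 5 hemocyte markers summed to between 4866 and 7172 in Alk-YS and between 5910 and 10330 in w1118, with overlap, and 1 of 5 passed as lower. Median log2 fold changes were -0.84 for the muscle, -2.22 for the fat body and -0.33 for the hemocyte markers. No gene of the trachea, ring gland, imaginal disc or gut lining lists passed, and their sums overlapped. Their median log2 fold changes were 0.06, 0.04, 0.21 and 2.73. No marker of these lists was at 0 in all libraries. The part of these tissues in the *Ldh* difference was not tested.

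Genes near *Ldh* were inspected after its values were seen. Of the 40 nearest tested neighbours of the 10 members, 2 on each side, 1 passed in limma, a share near the 2.97% of all genes tested. It was *Mdr65* (3L, 6240500 to 6245746), an ABC transporter of the blood-brain barrier, which lies 13359 bases from *Ldh*. It had 1421, 1693 and 1305 scaled counts in Alk-YS replicates 1 to 3, against 2151, 2601 and 2489 in w1118 replicates 1 to 3 (log2 fold change -0.72, limma adjusted p = 0.0232). *Best2*, which lies between *Mdr65* and *Ldh*, did not pass (log2 fold change -0.09, limma adjusted p = 0.888). Within 1 Mb of *Ldh*, 10 of 134 other tested genes passed (7.46%), of which 7 were lower in Alk-YS. Around the other 9 members the same share was between 0.592% and 2.84%. Whether the position of *Ldh* bears on its difference was not tested.

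The 3 members that act before the triose phosphates did not pass the test. *Hex-A* (FBgn0001186; X, 9585675 to 9589813), a hexokinase that phosphorylates glucose, had 1564, 2197 and 1567 scaled counts in Alk-YS replicates 1 to 3, against 2179, 2021 and 2255 in w1118 replicates 1 to 3. A pair of Alk-YS libraries lay below all w1118 libraries and the remaining one among them. Its log2 fold change was -0.29 with a 95% interval from -0.62 to 0.03 (limma adjusted p = 0.431). *Pgi* (FBgn0003074; 2R, 8910900 to 8914069), which converts glucose 6-phosphate to fructose 6-phosphate, had 2338, 3174 and 2620 scaled counts in Alk-YS, against 3191, 3101 and 3479 in w1118. Alk-YS replicate 2 again lay among the controls, and the log2 fold change was -0.27 with an interval from -0.56 to 0.01 (limma adjusted p = 0.38). For *Pfk* (FBgn0003071; 2R, 10109740 to 10117457), the phosphofructokinase that commits sugar to glycolysis, the log2 fold change was -0.21 (95% interval -0.54 to 0.13, limma adjusted p = 0.637). *Pfk* averaged 2254 ± 394 scaled counts in Alk-YS and 2590 ± 325 in w1118 (SD, n = 3 each), with overlapping groups.

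Both genes for glyceraldehyde 3-phosphate dehydrogenase, which makes NADH and opens the ATP-yielding stage, were measured. *Gapdh2* (FBgn0001092; X, 15868145 to 15869661) had 7862, 10449 and 8646 scaled counts in Alk-YS replicates 1 to 3, against 11010, 11506 and 13445 in w1118 replicates 1 to 3. All 3 Alk-YS libraries were below all 3 w1118 libraries, and the mean was 8986 ± 1327 in Alk-YS and 11987 ± 1287 in w1118 (SD, n = 3 each). The log2 fold change was -0.42 ± 0.13 (standard error). In limma *Gapdh2* reached p = 0.0117 before and p = 0.164 after adjustment, so it did not pass over all genes, and an exact permutation test gave 0.1. The edgeR test on recovered reads, which called 2.70% of all genes, gave *Gapdh2* an adjusted p of 0.163. DESeq2 on recovered reads called 6.33% of all genes and gave it an adjusted p of 0.0392. Without w1118 replicate 3 its log2 fold change was -0.34 (limma adjusted p = 0.199), and over the 17 alternatives the adjusted p lay between 0.0392 and 0.47.

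*Gapdh1* (FBgn0001091; 2R, 7791901 to 7793380) had 5298, 7254 and 6789 scaled counts in Alk-YS replicates 1 to 3, against 6711, 6708 and 7892 in w1118 replicates 1 to 3. The groups overlapped, with a log2 fold change of -0.15 and a 95% interval from -0.46 to 0.16 (limma adjusted p = 0.737). It was -0.013 without Alk-YS replicate 1, -0.240 without Alk-YS replicate 2 and -0.070 without w1118 replicate 3. *Gapdh2* supplied 60.4%, 59.6% and 56.6% of the summed FPKM of the 2 genes in Alk-YS replicates 1 to 3, against 62.7%, 63.8% and 63.6% in w1118 replicates 1 to 3. The share was lower in every Alk-YS library than in any w1118 library, with a mean difference of -4.49 percentage points (exact two-sided permutation test, p = 0.1, the smallest possible here). The 2 genes are closely related, and the treatment of reads that align to both is not stated, so this share is uncertain.

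The remaining enzymes between the triose phosphates and pyruvate had overlapping groups. *Tpi* (FBgn0086355; 3R, 30132981 to 30134599) interconverts the 2 triose phosphates, and its log2 fold change was -0.13 (95% interval -0.43 to 0.18). *Pgk* (FBgn0250906; 2L, 2746880 to 2753068), the first ATP-forming kinase of the pathway, gave -0.10 (interval -0.33 to 0.13) on the log2 scale. *Eno* (FBgn0000579; 2L, 1724768 to 1729636), or enolase, averaged 12680 ± 1309 scaled counts in Alk-YS and 12461 ± 1985 in w1118 (SD, n = 3 each), with a log2 fold change of 0.03 and an interval from -0.28 to 0.34. *PyK* (FBgn0267385; 3R, 22367536 to 22372746), the pyruvate kinase that delivers the substrate of *Ldh*, had 4440, 5778 and 5173 scaled counts in Alk-YS replicates 1 to 3, against 4710, 4674 and 6103 in w1118 replicates 1 to 3. Its log2 fold change was -0.01 with an interval from -0.33 to 0.32 (limma adjusted p = 0.992). The adjusted p of *Tpi*, *Pgk* and *Eno* in limma was between 0.756 and 0.96. With lower bounds as far out as -0.43, these intervals do not show equal levels. Exons of *Pgk* overlap those of *Cwc25* and exons of *Eno* overlap those of *Rrp40*, both on the opposite strand. *Cwc25* averaged 769.2 and *Rrp40* 561.7 scaled counts over the 6 libraries, far less than either enzyme, and the strand setting of the counting is not stated.

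**Figure D2:**
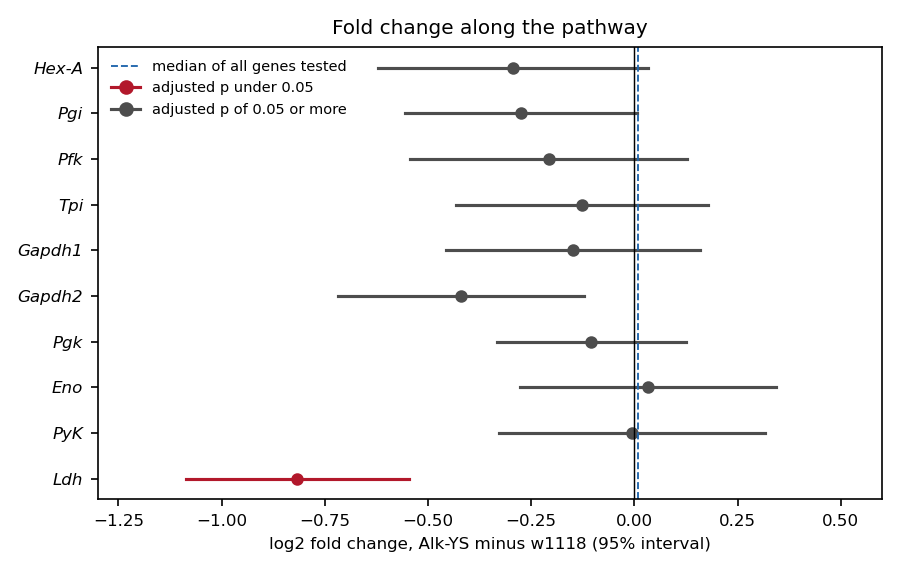
Log2 fold change (Alk-YS minus w1118, x axis) of the 10 genes in pathway order from top to bottom, with 95% intervals from limma; red marks an adjusted p under 0.05 and the dashed line the median of all 9668 genes tested (0.01). The interval of *Ldh* runs from -1.09 to -0.55, and that of *Gapdh2*, the other one that excludes 0, from -0.72 to -0.12.

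Set against the step before it, the FPKM of *Ldh* was 11.9%, 9.58% and 11.8% of that of *PyK* in Alk-YS replicates 1 to 3, against 23.8%, 20.2% and 15.2% in w1118 replicates 1 to 3. The groups did not overlap in this ratio, which was not tested because the pair was chosen after the values were seen.

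The members also varied by library within each genotype. Alk-YS replicate 1 held the lowest value of 8 of the 10 members, and w1118 replicate 3 the highest value of 9. The mean deviation of the 10 members from their own average, on the log2 scale, was -0.28, 0.06 and -0.13 in Alk-YS replicates 1 to 3, against 0.03, 0.07 and 0.26 in w1118 replicates 1 to 3. The groups overlapped, since Alk-YS replicate 2 lay above w1118 replicate 1. *Ldh* was also lowest in Alk-YS replicate 1, but its highest library was w1118 replicate 1, and its Alk-YS replicate 2 lay below every control. The median log2 fold change of the members was -0.09 without w1118 replicate 3 and -0.12 without Alk-YS replicate 1, with 8 of 10 below 0 in either case. The share of all genes tested below 0 was 49.9% without w1118 replicate 3 and 49.1% without Alk-YS replicate 1. The 3 libraries rich in gut lining transcripts included both the highest library for the members, w1118 replicate 3, and the lowest, Alk-YS replicate 1.

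**Figure D3:**
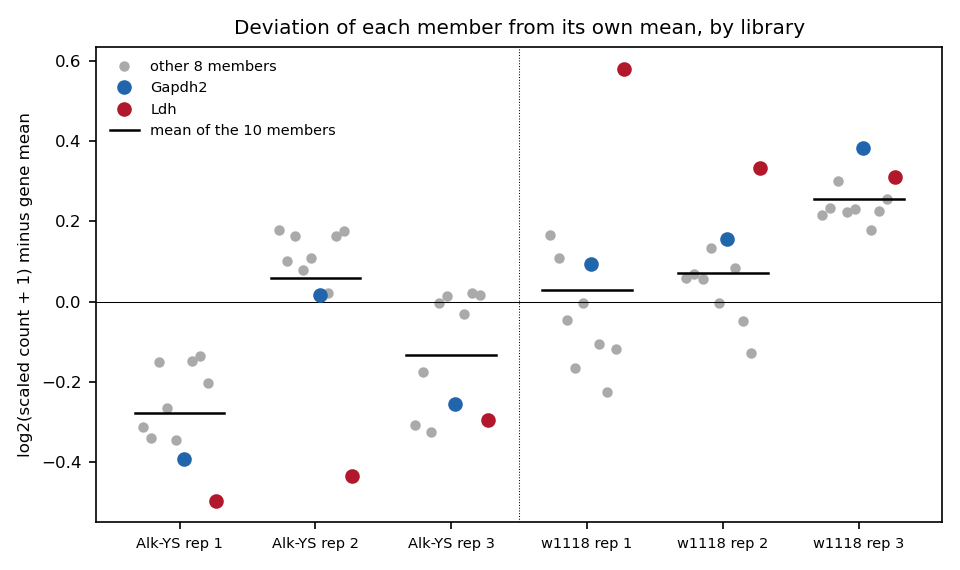
Deviation of log2(scaled count + 1) from the gene's own mean over 6 libraries (y axis) for each of the 10 genes in each library (x axis, Alk-YS left of the dotted line and w1118 right of it); red points are *Ldh*, blue points *Gapdh2*, grey points the other 8 genes and black bars the mean of the 10. The black bars run from -0.28 in Alk-YS replicate 1 to 0.26 in w1118 replicate 3, and *Ldh* is negative in all Alk-YS libraries and positive in all w1118 libraries.

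Across 8332 other genes with a mean of at least 50 scaled counts, those whose levels over the 6 libraries were most like this mean profile were *baz* (Pearson r = 0.9916), *Pih1D1* (0.9892), *Xrp1* (0.9878), *Acph-1* (0.9859) and *CG17544* (0.9854). None of these 5 passed between the genotypes in limma (adjusted p between 0.35 and 0.692). With 6 libraries and this many genes, such values describe likeness only.

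Genes connected to glycolysis were compared by 8 lists with 97 entries, of which 80 were tested. Of the 80, 1 passed in limma, lower in Alk-YS, against 2.97% of all genes tested in either direction. Of the glycolytic steps outside the 10 members, the aldolase gene *Ald* had 5340, 7987 and 6442 scaled counts in Alk-YS replicates 1 to 3, against 8201, 7862 and 8836 in w1118 replicates 1 to 3. Its log2 fold change of -0.35 did not pass (limma adjusted p = 0.325), and Alk-YS replicate 2 lay within the w1118 range. The phosphoglycerate mutase gene *Pglym78* was lower without overlap between groups but did not pass (log2 fold change -0.22, limma adjusted p = 0.395). The list of other glycolytic genes and isoforms had 8 tested of 16, and its median log2 fold change was 0.04. The hexokinase genes *Hex-C*, *Hex-t1* and *Hex-t2* were not tested. *Hex-C* fell below the minimum mean of 10 scaled counts, and *Hex-t1* and *Hex-t2* had no entry in the comparison table. None of them exceeded 0.103 FPKM in any library.

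**Figure D4:**
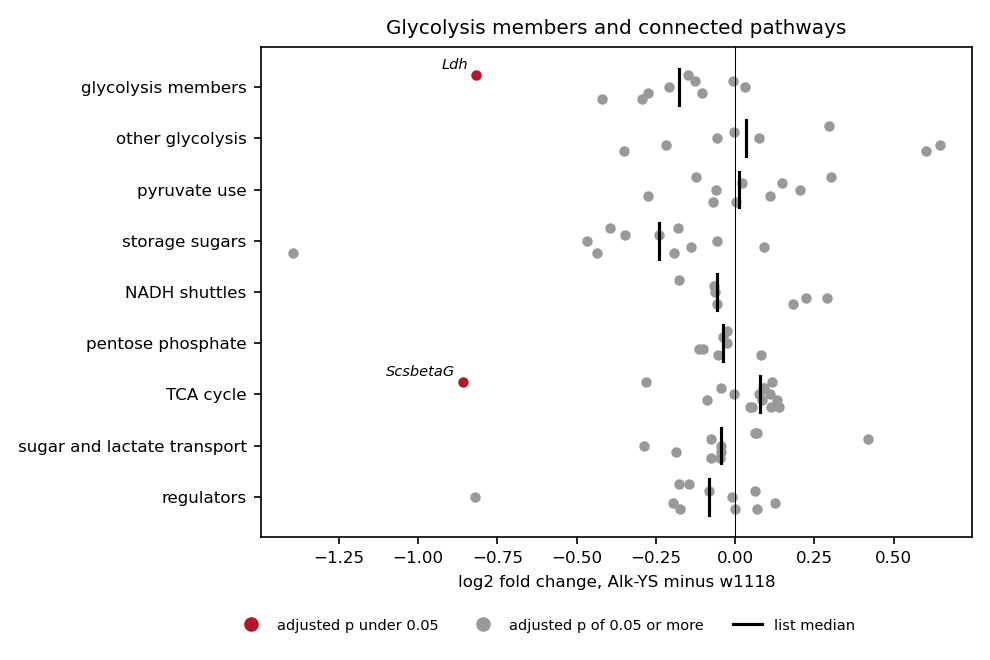
Log2 fold change (Alk-YS minus w1118, x axis) of the 10 glycolysis genes and of the tested genes of 8 connected lists (rows), 1 point per gene with the list median as a black bar; red marks an adjusted p under 0.05 in limma. *Ldh* (-0.82) and *ScsbetaG* (-0.86) are the 2 genes that passed.

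Around pyruvate, no gene of mitochondrial entry passed. *Pdk*, the kinase that inhibits pyruvate dehydrogenase, had 1343, 1535 and 1507 scaled counts in Alk-YS replicates 1 to 3, against 1195, 1111 and 1250 in w1118 replicates 1 to 3. All Alk-YS libraries were above all w1118 libraries, but the log2 fold change of 0.30 did not pass (limma adjusted p = 0.182). The mitochondrial pyruvate carrier gene *Mpc1* had a log2 fold change of -0.27 (limma adjusted p = 0.423). None of the 10 tested genes of pyruvate use passed, and their median was 0.01. In the list of NADH shuttle genes none of 7 passed. Among those with a mean of at least 50 the largest log2 fold changes were 0.29 for *Men*, the malic enzyme, and 0.22 for *Gpo-1*, the mitochondrial glycerol 3-phosphate dehydrogenase.

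The one connected gene that passed was *ScsbetaG* (FBgn0029118; 3L, 5561701 to 5563691; named *Sucb* in the table), a subunit of succinyl-CoA synthetase in the TCA cycle. It had 1087, 1058 and 1020 scaled counts in Alk-YS replicates 1 to 3, against 1799, 2048 and 1898 in w1118 replicates 1 to 3. The groups were widely separated, with a log2 fold change of -0.86 ± 0.09 (standard error; limma adjusted p = 0.00256), and the call held under all 17 alternatives. *ScsbetaG* lies on 3L within 1 Mb of *Ldh* and is 1 of the 10 genes counted there. The other subunits of the enzyme did not pass, with log2 fold changes of 0.11 for *Scsalpha1* and -0.05 for *ScsbetaA*. Among the 16 TCA cycle genes the median was 0.08. *Idh3g*, a subunit of isocitrate dehydrogenase, had a log2 fold change of -0.28 without overlap between groups (limma adjusted p = 0.223).

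Genes of storage sugars and gluconeogenesis had the lowest median of the 8 lists, -0.24, with 10 of 11 log2 fold changes below 0 and none past the threshold in limma. *UGP*, which makes the UDP-glucose used for glycogen and trehalose, had 957.1, 957.7 and 904.1 scaled counts in Alk-YS replicates 1 to 3, against 1144, 1380 and 1386 in w1118 replicates 1 to 3. The groups did not overlap, and the log2 fold change of -0.47 passed in DESeq2 on recovered reads (adjusted p = 0.00339) but not in limma (0.0638), with adjusted p between 0.00339 and 0.244 over the 17 alternatives. *Tps1*, the trehalose synthesis gene of the fat body, had 36.9, 87.6 and 5.58 scaled counts in Alk-YS replicates 1 to 3, against 106, 172 and 20.7 in w1118 replicates 1 to 3 (log2 fold change -1.39, limma adjusted p = 0.673). The value was unstable when a library was left out. It was -0.35 without Alk-YS replicate 3, -0.78 without w1118 replicate 2, -2.22 without Alk-YS replicate 2 and -2.28 without w1118 replicate 3. On the FPKM values it was -0.57. In each same-numbered pair, however, *Tps1* was lower in Alk-YS. A fit with the replicate number as a block gave -1.39 (limma adjusted p = 0.0653). The fat body markers were likewise lowest in replicate 3 and highest in replicate 2 of each genotype, and their part in this value was not tested.

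The pentose phosphate genes, which draw on glucose 6-phosphate, had no gene past the threshold among 7, with log2 fold changes of -0.11 for *Taldo* and -0.10 for *Pgd* as the 2 largest. Of 10 tested sugar and lactate transport genes none passed, and at a mean of at least 50 the largest log2 fold changes were 0.42 for the trehalose transporter *Tret1-1* (limma adjusted p = 0.473) and -0.19 for *sut1*. Among 11 regulators none passed. *sug*, a sugar-responsive transcription factor gene, had 37.8, 34.2 and 55.8 scaled counts in Alk-YS replicates 1 to 3, against 83.6, 96 and 51.2 in w1118 replicates 1 to 3 (log2 fold change -0.82, limma adjusted p = 0.294), and *bigmax*, the partner of the glucose sensor Mondo, had a log2 fold change of -0.20. *ERR*, which drives glycolytic genes including *Ldh* in fly larvae and was named after its values were seen, had 219, 241 and 176 scaled counts in Alk-YS replicates 1 to 3, against 239, 192 and 203 in w1118 replicates 1 to 3. The difference was -0.001 ± 0.17 (standard error) on the log2 scale.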

How the data were processed

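Bulk RNA sequencing of the larval CNS was analysed in 3 Alk-YS and 3 w1118 libraries. Per the labels and the study's methods, the authors aligned paired-end reads with HISAT2 2.0.5 to Ensembl BDGP6, counted them with featureCounts 1.5.0-p3 and used DESeq2 1.20.0; strand setting and annotation release are not given in the sources used here. The deposited comparison table holds a signal value per gene and library, the read count divided by a size factor (the scaled count). The deposited FPKM table holds per-length values. The authors' own log2 fold changes, p-values and adjusted p-values in the table were not used. Gene positions are the table's; of its IDs 98.2% were in Ensembl release 115, and 98.4% of these had equal coordinates.

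Whole reads were recovered from the steps of the scaled values (100% whole multiples within 0.001 in each library); edgeR 4.0.16 called 261 genes and DESeq2 1.42.0 612 on them. For w1118 replicate 2 this says little, since its size factor is 0.9999. No replicate pair agreed within sampling noise (mean chi-square per gene between 12.1 and 89). The pairs with w1118 replicate 3 gave 71.3 and 89, and the other pairs between 12.1 and 32.3. Genes with a mean of at least 10 scaled counts were tested on log2(scaled count + 1) with limma 3.58.1 in R 4.3.3 (mean-variance trend, two-sided), with Benjamini-Hochberg adjustment over 9668 genes; fold changes of low genes are understated on this scale. The fits were tested on simulated data, where DESeq2 made more false calls than its threshold allows, and more than limma or edgeR did. Single values had an exact two-sided permutation test. Replicates are separate pools of animals per the labels.

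The members, lists and tests were chosen with earlier results of these data known. Named genes were the 10 members, *Alk*, the 5 genes most like the members' mean profile, and in each connected list any gene called plus the 2 largest log2 fold changes at a mean of at least 50. Genes named outside this rule are *Mdr65*, *Best2*, *Cwc25*, *Rrp40*, *Scsalpha1*, *ScsbetaA*, *ERR*, *fbp* and the untested hexokinase genes. Alternatives were other tests, scalings, pseudocounts (0.1 and 5), filters (none and 50), no trend, FPKM, a replicate block and leaving out each library. Sequences were not used here.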

Additional observations from a re-analysis of the deposited data

How the results depend on the processing

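Of the results repeated under alternatives, 495 values kept their direction and side of the threshold or stayed within the limits set for counts and values, 12 moved, 4 changed sign, 2 gained and 3 lost a call. The 287 genes called by limma became 612 with DESeq2 on recovered reads and between 105 and 336 when 1 library was left out. The members called became 2 with DESeq2 (*Ldh*, and *Gapdh2* with a log2 fold change of -0.42) and were between 0 and 1 when 1 library was left out, with 0 without Alk-YS replicate 1, w1118 replicate 1 or w1118 replicate 2. *Ldh* then had log2 fold changes of -0.77, -0.73 and -0.85. Members without overlap numbered 2, and between 2 and 5 with a library left out. Groups separate more easily with fewer libraries, and the share over all genes was not counted there. That range is therefore not a result about the members. With 1 library left out, the log2 fold change of *Eno* lay between -0.073 and 0.153, negative without Alk-YS replicate 2 (-0.041) and without w1118 replicate 1, and that of *PyK* between -0.096 and 0.12, positive without Alk-YS replicate 1 (0.094) and without w1118 replicate 3. The other members kept their sign. *Pfk*, *Tpi*, *Pgk*, *Hex-A*, *Pgi* and *Gapdh1* moved by over 1.5 times with 1 library left out. *Ldh* stayed between -0.874 and -0.731 and *Gapdh2* between -0.535 and -0.329, which is less than that. *Pfk* was -0.342 without Alk-YS replicate 2, -0.097 without Alk-YS replicate 3 and -0.110 without w1118 replicate 3. *Tpi* was -0.027 without Alk-YS replicate 1, -0.199 without Alk-YS replicate 2, -0.242 without w1118 replicate 1 and -0.047 without w1118 replicate 3. *Pgk* was -0.057 without Alk-YS replicate 1, -0.184 without w1118 replicate 1 and -0.041 without w1118 replicate 3. *Hex-A* was -0.457 without Alk-YS replicate 2, *Pgi* -0.174 without Alk-YS replicate 1, and *Gapdh1* ranged between -0.240 and -0.013. The causes were not tested. *UGP* passed with DESeq2 alone. The replicate numbers are shared by the groups, but same-numbered libraries did not deviate together in every pair (r = -0.121, 0.354 and 0.408). A fit with the replicate number as a block called 284 genes and 1 member. Counting error limits no member, since each rested on at least 449 reads in each library.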

Other observations

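*fbp*, which encodes the gluconeogenic enzyme that opposes *Pfk*, was not among the genes to be named and is given because of its values. It had 540.3, 451.6 and 519 scaled counts in Alk-YS replicates 1 to 3, against 680, 760.1 and 606.3 in w1118 replicates 1 to 3, without overlap between the groups. The log2 fold change was -0.44, which did not pass (limma adjusted p = 0.143).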
